A study of Mus musculus with 200 samples.

Results

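Class I molecules of the major histocompatibility complex and the proteins that load them with peptide were followed in whole mouse embryos by 8 genes, chosen by symbol out of 22033 genes in the tables. H2-K1 and H2-D1 encode the classical heavy chains of B6 mice, H2-T23 and H2-M3 encode non-classical heavy chains, and B2m encodes beta-2-microglobulin, the light chain that all of them share. Tap1 and Tap2 encode the 2 subunits of the peptide transporter of the endoplasmic reticulum, and Tapbp encodes tapasin, which bridges that transporter and empty class I molecules. All but B2m lie in or near the H2 complex on mouse chromosome 17, and B2m lies on chromosome 2.

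Class I molecules carry peptides from proteins degraded in the cell to the cell surface, where T cells and natural killer cells inspect them. Heavy chains without light chain or peptide are held back in the endoplasmic reticulum, so the light chain, the transporter and tapasin set how many complexes reach the surface. The heavy chain genes are among the most polymorphic genes of vertebrates and occur as families of closely similar copies. Expression is generally low in the early embryo and rises in most tissues later, and interferon gamma raises the level of nearly the whole pathway.

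Expression was measured by 3SEQ, which sequences the 3' ends of polyadenylated transcripts, in single embryos collected at E11.5 and separated from extra-embryonic material. F1 embryos came from the inbred strains C57BL/6J (B6) and CAST/EiJ (Cast), 8 from B6 mothers and Cast fathers (B6 × Cast) and 8 from the reverse mating (Cast × B6). N2 embryos came from backcrosses to B6 of F1 animals, themselves born to B6 mothers and Cast fathers, 89 of them with a B6 mother and an F1 father and 65 with an F1 mother and a B6 father. At each locus an N2 embryo is therefore either B6/B6 or heterozygous for the Cast allele, and no embryo is Cast/Cast. Each F1 cross was represented by 2 litters at different stages and the N2 embryos by 17 litters born to B6 and 12 born to F1 females. Somite numbers were known for 7 of the 8 B6 × Cast and 6 of the 8 Cast × B6 embryos. The stage given for an F1 litter is the range over its embryos with a number. Litter mates share a mother and mostly a sequencing lane, and 13 of the 14 lanes held embryos of only 1 kind of mother, so that the mother's genotype and the lane can largely not be told apart. Reads counted on genes numbered 15703888 to 38234229 in an F1 embryo and 245220 to 5370322 in an N2 embryo. Levels are given in RPM (reads per 1000000 reads on genes), and 1 RPM is about 2 reads at the median N2 depth.

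The N2 lanes were not alike for these genes. In lanes K to N, with 45 of the 154 embryos, the median level of B2m was 54.3 to 92.7 RPM, against 2.92 to 18.3 RPM in the other 10 lanes. Results that rest on these 4 lanes are given with and without them, a choice made after the values were seen.

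Promoters of the classical class I genes hold a set of short elements through which the pathway is switched on: a kappa-B site, an interferon response element and the X and Y boxes, the last 2 bound by the RFX, CREB/ATF and NF-Y complex that NLRC5 joins. The 200 bases before the RefSeq start (GRCm38.p6) are printed here for the 4 members whose mean reached 5 RPM, 5′ to 3′ on the strand of the gene. Capitals mark matches on either strand to GGGATTCCC (kappa-B), AGTGAAA (interferon response), TGACG (core of the X box) and CCAAT (Y box).
H2-K1 (chr17:34000348-34000547, - strand): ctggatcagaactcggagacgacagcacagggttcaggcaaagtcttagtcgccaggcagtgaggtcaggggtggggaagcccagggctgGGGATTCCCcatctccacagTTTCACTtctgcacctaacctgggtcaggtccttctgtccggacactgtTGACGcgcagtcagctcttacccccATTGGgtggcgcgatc
H2-D1 (chr17:35262894-35263093, + strand): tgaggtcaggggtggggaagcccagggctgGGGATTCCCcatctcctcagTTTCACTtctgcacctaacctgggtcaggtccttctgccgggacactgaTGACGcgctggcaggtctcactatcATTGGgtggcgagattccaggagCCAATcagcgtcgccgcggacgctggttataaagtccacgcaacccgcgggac
B2m (chr2:122147487-122147686, + strand): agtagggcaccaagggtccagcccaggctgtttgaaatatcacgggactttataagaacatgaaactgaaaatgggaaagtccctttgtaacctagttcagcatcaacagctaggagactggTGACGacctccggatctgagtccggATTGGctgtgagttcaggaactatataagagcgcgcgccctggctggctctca
Tapbp (chr17:33919278-33919477, + strand): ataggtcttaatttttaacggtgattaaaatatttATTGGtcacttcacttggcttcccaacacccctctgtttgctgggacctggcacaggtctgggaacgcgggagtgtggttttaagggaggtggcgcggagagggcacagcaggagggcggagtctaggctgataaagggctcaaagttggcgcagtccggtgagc
All 4 motifs were found before H2-K1 and before H2-D1, whose 200 bases share an unbroken run of 46 bases that covers the kappa-B match. Before B2m the X box core and a Y box were found, and before Tapbp a Y box alone. Among the other members, H2-M3 held the interferon response, X and Y matches, Tap1 the X box core and H2-T23 a Y box, and 7 of the 8 members had an entry. Among 32851 RefSeq promoters, GGGATTCCC was found in 0.213%, AGTGAAA in 2.87%, TGACG in 15.7% and CCAAT in 29.3%. All 4 motifs together were found in 4 entries (0.0122%), those of H2-D1, of H2-Q7 and a pair of entries of H2-K1. A match of letters describes the window and shows no binding. Only these exact letters were searched, and other forms of the same elements were not. A missing match, as before B2m and Tapbp, therefore does not show that an element is absent.

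Tapbp had the highest median of the 8 genes over all embryos of each cross. In N2 embryos Tapbp ranged from 2.93 to 132.1 RPM, with medians of 47.8 RPM with B6 mothers and 54.4 RPM with F1 mothers. Its medians in the F1 embryos were 69.2 RPM in B6 × Cast and 47.8 RPM in Cast × B6. 3SEQ counts about 1 tag per transcript and so needs no correction for length, although the use of several 3' ends and the removal of reads at repeated positions differ between genes.

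The light chain and the classical heavy chains had lower medians over each cross. B2m had medians of 6.42 RPM with B6 mothers and 18.2 RPM with F1 mothers, or 4.13 and 10.4 RPM without lanes K to N, and it reached 213.7 RPM in 1 embryo, the widest range of the 8 genes. In lanes K to N it lay above Tapbp, whose lane medians there were 16.8 to 30.2 RPM. H2-D1 had medians of 6.80 and 10.0 RPM, and its highest N2 embryo was at 22.9 RPM. H2-K1 had medians of 5.48 and 5.06 RPM and a highest value of 14.5 RPM. The ranges of B2m, H2-D1 and H2-K1 overlapped, so their order is not fixed beyond the spread between embryos, whereas the lowest F1 value of Tapbp, 40.6 RPM, lay above all F1 values of these genes except the 42.6 RPM of B2m in 1 Cast × B6 embryo.

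The transporter and the non-classical heavy chains were near the limit of what N2 depth can show. Tap1 had medians of 2.35 RPM with B6 mothers and 3.27 RPM with F1 mothers and was without a read in 13 of 154 embryos. H2-T23 had medians of 1.46 and 1.51 RPM and was without a read in 20 embryos. Tap2 and H2-M3 had means under 1 RPM, and H2-M3 was without a read in 78 N2 embryos. In the deeper F1 embryos each of the 8 genes was detected in all 16, with H2-M3 between 0.287 and 1.52 RPM. In RNA from whole embryos a smaller number of expressing cells and less transcript per cell cannot be told apart.

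**Figure D1:**
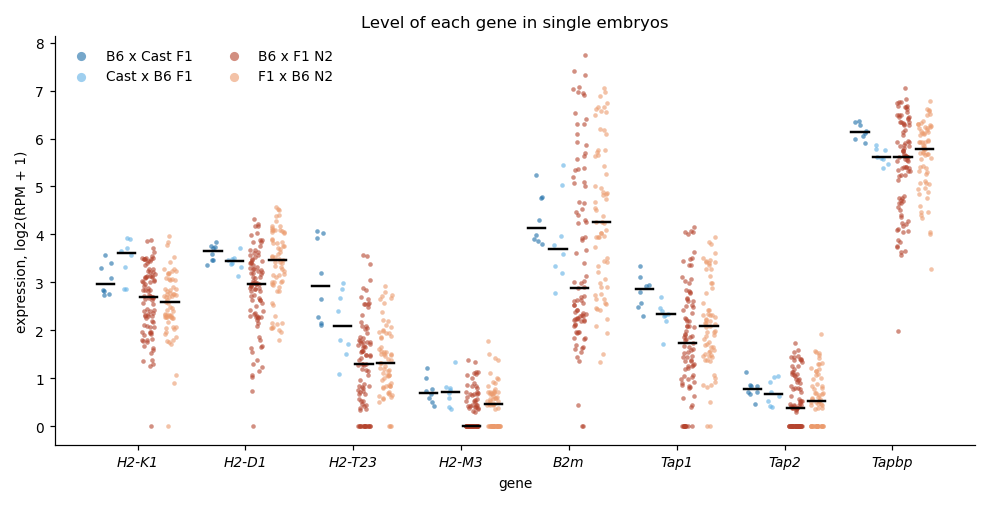
Expression of the 8 genes in single embryos as log2(RPM + 1), with 1 point per embryo, black bars at group medians and colours for the 2 F1 crosses and the 2 N2 crosses. Tapbp has the highest median in each cross, and B2m covers the widest range in N2 embryos, up to 213.7 RPM.

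Whether the alleles of a gene can be told apart depends on allele votes, the authors' estimated counts in which each SNP under a read takes a share of 1 vote for B6 or for Cast. H2-K1, H2-D1, H2-T23 and Tapbp had no vote of either allele in any F1 or N2 embryo. These are 4 of the 8 genes, and Tapbp was among them with 26360 reads in the F1 embryos. Among all 10018 genes with at least 2000 F1 reads, 780 (7.79%) were without a vote. H2-M3 had 4 votes in the F1 embryos, all for B6, and Tap2 had 20 for B6 and 24 for Cast, so that only B2m and Tap1 could be tested.

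The genes without votes lay among neighbours without votes, though not all of these neighbours had the reads to show one. H2-K1, on mm9 chr17:34132962-34137278 (minus strand), and Tapbp, on chr17:34052844-34066235 (plus strand), lie in 1 run of 17 consecutive genes without votes, from Daxx to Rxrb (chr17:34046359-34175338, 128.98 kb). Of these 17 genes 14 had at least 2000 reads in the F1 embryos, and the run took 770191 F1 reads in all. The next genes on both sides carried votes, 4607 in Kifc1 and 161 in Col11a2, and their genotypes differed in 0 of 153 N2 embryos. H2-D1 (chr17:35399675-35404444, plus strand) lies in another such run of 7 genes, from Nfkbil1 to H2-Q2, over 126.59 kb. Of these 7 genes 3 had at least 2000 F1 reads, and the next genes, Lta and H2-Gs10, had 79 votes and 1 vote. H2-T23 (chr17:36166718-36169800, minus strand) opens another run of 8 genes over 99.7 kb, which ends at Gm7030. Only H2-T23 itself had at least 2000 F1 reads there. It took 2780 of the 3316 F1 reads of the run, so its neighbours had few reads that could carry a vote. Tap1 (chr17:34324498-34334170) and Tap2 (chr17:34340472-34353266) lie between the runs of H2-K1 and H2-D1 and had votes. Whether the SNP set used for the Cast genome leaves out these stretches was not tested, and the list of SNPs was not used here.

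Genotypes of the genes without votes can only come from their neighbours, as the authors' hidden Markov model allows. The calls of H2-K1, Tapbp, Tap1 and Tap2 were the same in every embryo called at both, 152 or 153 of 154. H2-D1 differed from H2-K1 in 3 of 153 embryos and H2-M3, the farthest of the class I genes at chr17:37407165-37411429, in 5. The 7 genes of chromosome 17 are thus nearly 1 genotype, and their own-genotype effects are not independent of each other. B2m (chr2:121973422-121978819) had calls of its own, with 77 embryos heterozygous and 77 B6/B6.

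The background of the allele assignment was low where it could be measured. In embryos called B6/B6 at B2m, 2 of the votes (0.0702%) were for Cast, and at Tap1 0 of 195.5 votes, which allows a share of up to 1.53%. The median over 8247 genes with at least 100 such votes was 0.114%. The calls were made from these votes, so a low share is in part set by the calling. These shares and limits cover counting error only.

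B2m had a B6 allele fraction (BAF) above 0.5 in one F1 cross and near 0.5 in the other. In B6 × Cast embryos its pooled BAF was 0.695, over 1735 B6 and 760 Cast votes. In litter 3, at 58 to 63 somites, the BAF per embryo was 0.804, 0.738 and 0.538, and in litter 5, at 48 to 50 somites, it was 0.770, 0.709, 0.80, 0.831 and 0.814. In Cast × B6 embryos the pooled BAF was 0.487, with 0.395, 0.738, 0.50 and 0.727 in litter 1 and 0.541, 0.480, 0.794 and 0.375 in litter 2. All 8 B6 × Cast embryos lay above 0.5, and the Cast × B6 embryos lay on both sides of it. The mean BAF differed by 0.18 between the crosses, which did not pass in an exact permutation test over all genes with enough votes (q = 0.172 over 5713 genes). Tap1 differed by -0.08 in the same permutation test (q = 0.461), so 0 of the 2 members were called, against 2.00% of the genes tested.

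The 3 F1 embryos with the most B2m transcript had a BAF near or under 0.5, as did 3 others, at 0.375, 0.50 and 0.541. With a level chosen after the values were seen, the 3 embryos above 30 RPM had 31.9, 36.9 and 42.6 RPM and a BAF of 0.395, 0.538 and 0.480. Among the 13 embryos with less B2m the BAF ranged from 0.375 to 0.831, and it was above 0.7 in 10 of them. Pooled over votes it was 0.477 in the former and 0.747 in the latter. The votes per read also differed, from 0.416 to 0.664 in the 3 embryos and from 0.109 to 0.591 in the 13. No test was made of this split.

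In heterozygous N2 embryos the pooled BAF of B2m was 0.456 (95% Wilson interval 0.441 to 0.471). It was 0.454 with B6 mothers and 0.458 with F1 mothers. Among the 34 heterozygous embryos with at least 20 votes the BAF ran from 0.317 to 0.724, with a median of 0.45, and 12 of them were above 0.5. The pooled value leans on the lanes with many votes: it was 0.418 to 0.451 in lanes K to N and 0.523 to 0.711 in lanes D to G. It was 0.446 in lane C, over 56 votes, and 0.434 in lane J, over 53. In lanes A, B, H and I, which held 13 to 20 votes each, it was 0.308 to 0.357. The F1 pool of both crosses, 0.619 (0.604 to 0.634), lay above the N2 pool and its interval did not meet that of the N2 embryos. These intervals treat votes as independent molecules and cover counting error only.

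Tap1 was near 0.5 in the F1 embryos. Its BAF was 0.494 in the F1 embryos (95% Wilson interval 0.467 to 0.520), 0.474 in B6 × Cast and 0.524 in Cast × B6, with single embryos between 0.344 and 0.707. In heterozygous N2 embryos it was 0.571 (0.485 to 0.646) over 141 votes. Tap2 had 0.455 over 44 F1 votes, with an interval from 0.317 to 0.599.

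Allele-specific expression (ASE) was tested for both genes by the paired test of B6 minus Cast votes, pooling F1 embryos with heterozygous N2 embryos. B2m was not called over 93 embryos (Bonferroni-adjusted p = 1, unadjusted 0.0259). Its pooled BAF differed from 0.5 by 0.03. The test takes the mean over embryos of the vote difference scaled by library size. Its direction need not be that of the pooled BAF, and its p does not test the pooled BAF. Tap1 was not called either (Bonferroni-adjusted p = 1 over 83 embryos, unadjusted 0.300). Thus 0 of 2 members passed, where 18.9% of the 9084 genes tested passed. The direction of the pooled BAF of B2m was not stable, since the F1 embryos alone were 0.12 above an even BAF and the N2 embryos alone were 0.04 below it. Without lanes K to N the difference of the pooled BAF was 0.11. With each F1 litter left out it ran from 5.78e-04, without litter 3 of B6 × Cast, to 0.04, with 0.0096 without litter 5 of that cross. B2m was not called in any of these settings.

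**Figure D2:**
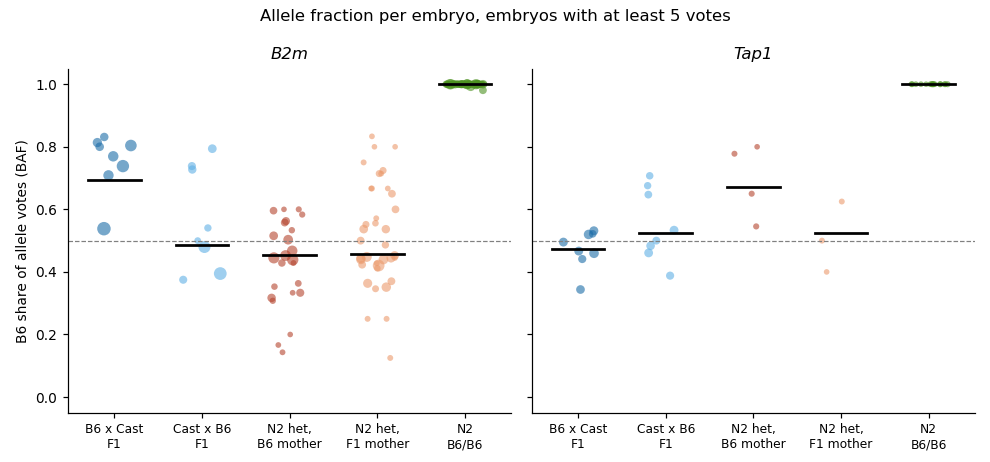
B6 share of the allele votes of B2m and Tap1 per embryo, for embryos with at least 5 votes, with larger points for more votes and black bars at the pooled share of each group; the dashed line marks 0.5. B6 × Cast embryos lie above 0.5 for B2m, heterozygous N2 embryos lie on both sides, and B6/B6 embryos lie at or near 1.

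The effect of the Cast allele on the total level was measured by setting heterozygous against B6/B6 N2 embryos at the genotype of the gene itself. A rank-sum test after lane, sex, somite number and 15 principal components had been regressed out of log2(RPM + 1) called a gene at a Benjamini-Hochberg q under 0.01. Of the 4 members with at least 5 RPM, 2 were called, Tapbp and H2-D1, in opposite directions. Over all 9733 autosomal genes tested 29.2% were called, and a count of 2 in 4 is given as a description. Tapbp was higher and H2-D1 lower in embryos that carried a Cast allele, while H2-K1, between them on the chromosome and with nearly the same genotypes, was not called.

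Tapbp ranged from 8.68 to 132.1 RPM in 68 heterozygous embryos, with a median of 67.6 RPM, and from 2.93 to 96.3 RPM in 85 B6/B6 embryos, with a median of 45.5 RPM. The groups overlapped widely, and 48 of the 68 heterozygous embryos lay above the B6/B6 median. Within lanes the difference was 0.42 ± 0.083 (SE) on the log2(RPM + 1) scale, and the rank-sum test gave q = 5.93e-09. The heterozygous median was the higher one in 12 of 14 lanes. On counts, edgeR's quasi-likelihood test over all genes gave a log2 fold change of 0.45 and an adjusted p of 1.91e-05. By mother the difference was 0.60 ± 0.11 with B6 mothers and 0.20 ± 0.12 with F1 mothers, and in separate flowcells it was 0.42 ± 0.082 and 0.43 ± 0.14. Without lanes K to N it was 0.53 ± 0.086 (q = 6.21e-09). Among litter mates, in a linear model with litter as a block, it was 0.36 ± 0.097 (q = 0.00253), where 14.4% of genes were called.

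H2-D1 ranged from 0 to 18.3 RPM in 70 heterozygous embryos, with a median of 6.85 RPM, and from 0.656 to 22.9 RPM in 84 B6/B6 embryos, with a median of 8.78 RPM. Both genotypes covered almost the same range, and 23 of the 70 heterozygous embryos lay above the B6/B6 median. Within lanes the difference was -0.33 ± 0.10, and the rank-sum test gave q = 6.83e-04. The call was less firm than that of Tapbp. Without lanes K to N the difference was -0.22 ± 0.13 and q = 0.0268. In edgeR's quasi-likelihood test the log2 fold change was -0.33 (unadjusted p = 0.00150, adjusted p = 0.229). That adjustment covers 12722 genes all tested at the genotype of H2-D1, of which 46 were called. The rank-sum q covers genes each tested at their own genotype, so the 2 adjusted values are not on the same footing. With litter as a block it was -0.32 ± 0.12 and was not called (q = 0.0361). Embryos of F1 mothers alone gave -0.27 ± 0.15 and those of B6 mothers -0.38 ± 0.14. The heterozygous median was the lower one in 11 of the 14 lanes.

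H2-K1 had nearly the same median in both genotypes, 5.37 RPM in heterozygous and 5.39 RPM in B6/B6 embryos. The within-lane difference was -0.03 ± 0.097, while that in the values of the rank-sum test was 0.08 (q = 0.229). H2-K1 and H2-D1 share long stretches of sequence with each other and with further class I genes, reads from repeated positions were discarded, and how reads of a Cast haplotype fall among these genes cannot be read from the counts.

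B2m was not called, with medians of 14.4 RPM in 77 heterozygous and 9.85 RPM in 77 B6/B6 embryos. The within-lane difference was 0.21 ± 0.14, while that in the values of the rank-sum test was -0.02 (q = 0.833). The genotypes stood apart by different amounts on the flowcells, at -0.19 ± 0.17 on the first and 0.57 ± 0.21 on the second, and this contrast was not tested. In each of lanes K to N the heterozygous median was the higher one, from 78 to 126.6 RPM against 21.3 to 72 RPM in B6/B6 embryos. Without these lanes the within-lane difference was 0.05 ± 0.17, and that in the values of the rank-sum test was -0.10 (q = 0.579).

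With the minimum lowered to a mean of 1 RPM, 2 further members entered, and neither was called, while Tapbp and H2-D1 kept their calls, against 25.4% of 12722 genes. H2-T23 had a within-lane difference of 0.10 ± 0.12, and Tap1 one of -0.02 ± 0.12. In the values of the rank-sum test these were 0.24 (q = 0.0702) and -0.04 (q = 0.749). Tap2 and H2-M3 were too low to test, at 0.16 ± 0.085 and -0.04 ± 0.067.

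The run without votes was not of 1 direction. Of its 17 genes, 14 were tested, and 3 were called higher and 5 lower in heterozygous embryos, beside 29.2% of all genes called. The genotypes of the genes on both sides of the run differed in 0 of 153 embryos. The 14 genes were thus tested on nearly 1 genotype and are not separate results. AA388235, the gene next to H2-K1, was lower by the most, at -0.91 ± 0.093 within lanes (q = 2.06e-19), and Wdr46 was lower as well (-0.29 ± 0.057). Zbtb22 lies inside the annotated span of Tapbp on the same strand, so reads from shared exons cannot be assigned with certainty. The difference of Zbtb22 was 0.15 ± 0.12 (q = 0.471).

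**Figure D3:**
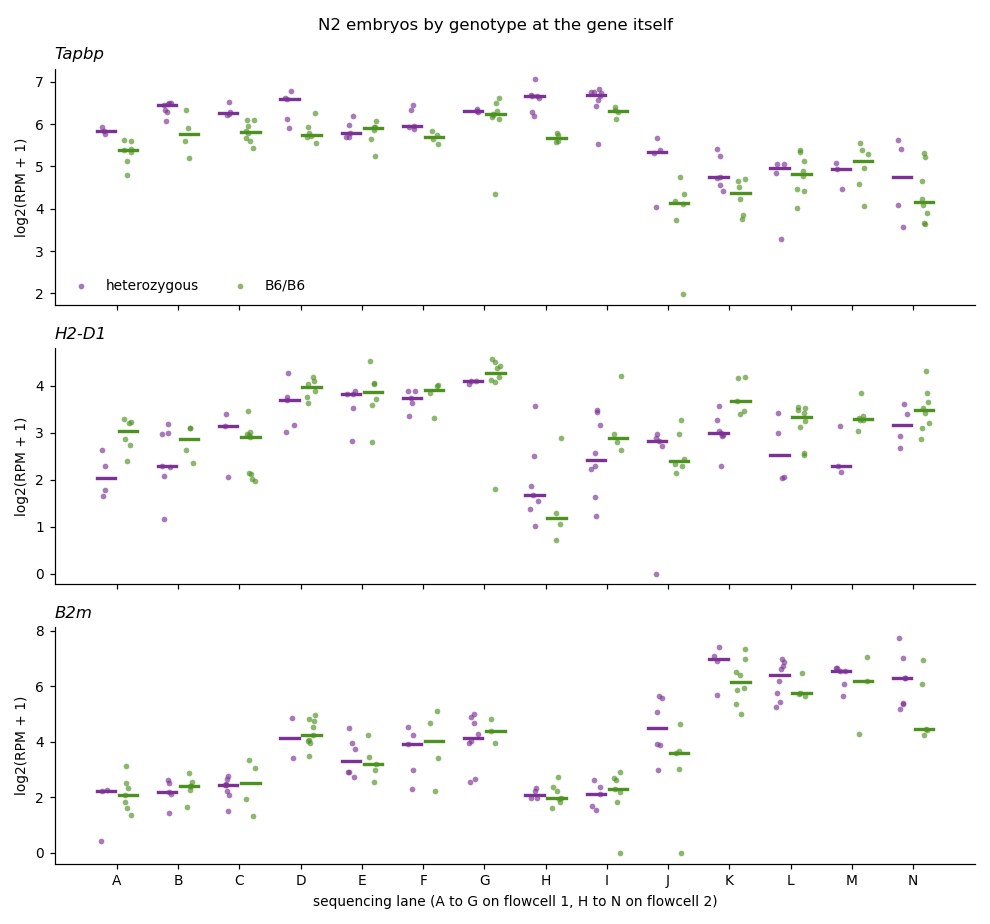
Level of Tapbp, H2-D1 and B2m in single N2 embryos as log2(RPM + 1), by sequencing lane and by genotype at the gene (heterozygous in purple, B6/B6 in green), with bars at the medians. The heterozygous median of Tapbp is the higher one in 12 of 14 lanes and that of H2-D1 the lower one in 11.

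Differences by own genotype were not shown to depend on the mother. The interaction of own genotype and mother, in a linear model with lane, was called for 0 of the 4 members, against 0.0205% of genes at 5 RPM, and for 0 of 6 at 1 RPM (0.0314%). For Tapbp the effect with F1 mothers was lower by 0.40 on the log2 scale (unadjusted p = 0.0171, q = 0.804), and for B2m it was lower by 0.35 (q = 0.997).

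If both copies of a gene act only in cis, the BAF can be predicted from total levels alone, as the mean RPM of B6/B6 embryos divided by 2 times that of heterozygous embryos. Setting the prediction beside the votes checks whether counts and votes of a polymorphic gene give the same allele ratio. For the 4 members without votes it is the only estimate: 0.335 (95% interval 0.284 to 0.386) for Tapbp, 0.679 (0.557 to 0.801) for H2-D1, 0.535 (0.447 to 0.623) for H2-K1 and 0.414 (0.282 to 0.545) for H2-T23, which had a mean under 5 RPM. With means taken within lanes these were 0.372, 0.640, 0.516 and 0.448. None of the 4 can be set against an allele count.

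For B2m and Tap1 both estimates exist. B2m had a predicted BAF of 0.339 (0.198 to 0.480) and a measured one of 0.456 in heterozygous N2 embryos, a difference of -0.117 (-0.259 to 0.025). Tap1 had 0.622 (0.429 to 0.815) and 0.571, a difference of 0.051 (-0.160 to 0.262). Neither interval left out 0. At 5 RPM B2m alone was tested, and 0 of 1 members were called, against 19.1% of 7282 genes. At 1 RPM, with Tap1, 0 of 2 were called, against 17.6% of 8815 genes. These intervals are wide: the median absolute difference over the genes with at least 5 RPM was 0.0446, and Spearman's rho between the estimates was 0.505 across genes, which are not independent replicates. Set against the F1 BAF in place of the N2 votes, the difference for B2m was -0.280, and its interval left out 0.

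Stage was read from somite number, known for 147 N2 embryos with 42 to 57 somites. Of the 4 members with at least 5 RPM, 1 was called in Spearman's correlation of RPM with somite number (q under 0.05), against 22% of 10007 genes. With the minimum at 1 RPM a further one, H2-T23, was called, so that 2 of 6 passed against 18.9% of 13145 genes. Both calls rose with stage, and neither remained once lane was regressed out of the ranks.

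Tapbp rose with somite number, with rho = 0.222 (q = 0.0361, n = 147). Embryos with at most 47 somites had 10.8 to 93.2 RPM with a median of 48.4 RPM, and embryos with at least 50 had 8.68 to 132.1 RPM with a median of 51.4 RPM. Spearman's rho was 0.186 with lane regressed out (q = 0.158) and 0.221 without lanes K to N (q = 0.114). With F1 mothers alone it was 0.094, or 0.406 with lane regressed out. With B6 mothers alone it was 0.279, or 0.029 with lane regressed out. These lane-regressed values by mother were not tested. In the F1 litters Tapbp was at 40.6 to 48.1 RPM with 41 to 43 somites, 46.5 to 57.0 RPM with 46 to 48, 58.6 to 80.5 RPM with 48 to 50 and 65.1 to 81 RPM with 58 to 63. These litters differ in cross as well as in stage, so stage and cross cannot be told apart there.

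H2-T23, the Qa-1 heavy chain whose product presents leader peptides of other class I chains, rose with somite number with rho = 0.265 (q = 0.0108, n = 147). Its median was 0.758 RPM in the 55 embryos with at most 47 somites and 1.85 RPM in the 68 with at least 50. Spearman's rho was 0.154 with lane regressed out (q = 0.290). The F1 litters spread widely. In the litter at 58 to 63 somites the embryos had 15.7, 15.3 and 14.2 RPM. In that at 48 to 50 somites they had 3.83, 3.34, 8.15, 3.42 and 5.32 RPM. The litter at 46 to 48 somites had 6.92, 5.34, 4.26 and 6.26 RPM, and that at 41 to 43 had 1.13, 1.83, 2.47 and 2.30 RPM. The embryos at 15.3, 6.92 and 1.13 RPM had no somite number of their own. The oldest litter lay above all others and the youngest below all others, and the litters between overlapped.

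The other members showed no call. H2-K1 had rho = 0.204 (q = 0.0563), H2-D1 -0.171 (q = 0.118) and B2m -0.15 (q = 0.174). At 1 RPM Tap1 had -0.065 (q = 0.613). For H2-D1 and B2m rho changed sign to 0.097 and 0.028 once lane was regressed out. Embryos of B6 mothers alone gave called falls for H2-D1 (rho = -0.384, q = 0.00142) and B2m (rho = -0.403, q = 8.00e-04), which were -0.043 and -0.059 with lane regressed out. In those embryos 51.6% of the 10007 genes were called, 3478 of them falling. Embryos of F1 mothers alone (n = 62) gave rho = -0.052 for H2-D1 and 0.236 for B2m, neither called. With lane regressed out these were 0.336 and 0.294. Lane-regressed values within 1 kind of mother were not tested. In the F1 litters H2-K1 was at 11.5 to 14.2 RPM with 41 to 43 somites, 6.26 to 10.9 RPM with 46 to 48, 5.67 to 7.54 RPM with 48 to 50 and 8.79 to 10.8 RPM with 58 to 63.

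The slope on somite number was not shown to depend on the mother. The interaction was called for 0 of 4 members (0.00999% of genes) and for 0 of 6 at 1 RPM (0.00761%). The difference of the slopes was 0.12 per somite for H2-D1 (unadjusted p = 0.0326, q = 0.600) and for B2m (q = 0.698). Only B2m had enough heterozygous embryos with 20 votes for a test of BAF against somite number. It was not called (rho = -0.062, q = 0.967, n = 33), against 0.297% of 3370 genes.

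**Figure D4:**
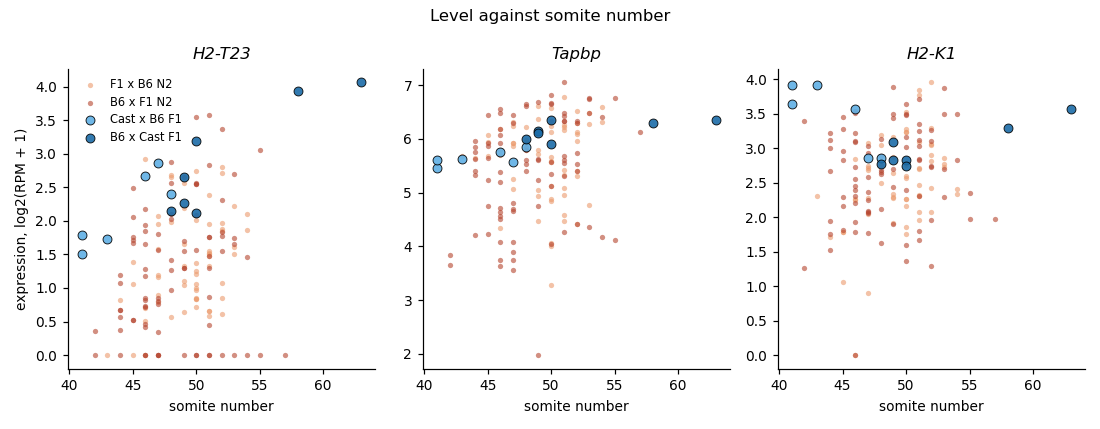
Level of H2-T23, Tapbp and H2-K1 as log2(RPM + 1) against somite number, with small points for N2 embryos and large outlined points for F1 embryos, coloured by cross. In F1 embryos H2-T23 runs from 1.83 to 15.7 RPM among those with a somite number, while N2 embryos spread widely at each somite number.

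The mother's genotype was compared by the Mann-Whitney U test of RPM, and 0 of 4 members were called at a Bonferroni-adjusted p under 0.01, against 5.03% of 9733 genes. At 1 RPM 0 of 6 were called, against 3.89%. H2-D1 came nearest, with means of 7.21 ± 4.22 RPM with B6 mothers and 10.6 ± 5.36 RPM with F1 mothers (SD), a log2 ratio of 0.56 and an adjusted p of 0.818 (unadjusted 8.40e-05). B2m had means of 28.3 ± 43.8 and 33.7 ± 35.6 RPM (adjusted p = 1). Tapbp, at 51.9 ± 30.4 and 54.1 ± 23.3 RPM, and H2-K1, at 5.88 ± 3.09 and 5.44 ± 2.82 RPM, differed by far less than the spread.

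Levels by mother shifted with the lanes. Without lanes K to N, H2-D1 was called, with means of 6.21 RPM with B6 mothers and 12.0 RPM with F1 mothers (log2 ratio 0.95, adjusted p = 0.00391). In this setting 12.6% of genes were called. All 45 embryos of F1 mothers left were on flowcell 1, while the 64 of B6 mothers came from both flowcells. On flowcell 1 the H2-D1 medians with F1 mothers were 6.58 RPM in lane C and 12.5 to 16.5 RPM in lanes D, E and G. With B6 mothers they were 5.43, 5.23 and 13.4 RPM in lanes A, B and F. On flowcell 2 alone the ratio of H2-D1 was 0.12. For B2m the means without lanes K to N were 8.02 and 13.2 RPM (log2 ratio 0.71, adjusted p = 0.239, unadjusted 2.45e-05), and it was not called. Under Benjamini-Hochberg adjustment over all lanes H2-D1 was called (q = 7.30e-04), where 21.3% of genes were. With the means of litters, or of lanes, as the units the test called 0 of all genes. On flowcell 2 Tapbp had medians of 39 RPM with B6 mothers and 29.1 RPM with F1 mothers (log2 ratio of means -0.78), and B2m had 14.3 and 80.2 RPM (1.03), although all 20 embryos of F1 mothers there came from lanes L and M.

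B2m differed widely between sequencing lanes. Lane accounted for 81.8% of the variance in its ranks, a share reached by 1.10% of genes with at least 1 RPM, whose median was 56.3%. Mean levels in lanes K to N over those elsewhere had a log2 ratio of 2.98 for B2m, 2.03 for Tap1 and -1.29 for Tapbp, where the median over genes was 0.41. H2-D1 was at 0.04, H2-K1 at -0.40 and H2-T23 at -0.90. B2m and Tap1 were thus higher and Tapbp lower in the same 4 lanes, although Tapbp was also low in lane J (median 18.3 RPM). Tap2 had lane medians of 0 to 0.409 RPM there and 0 to 0.967 RPM elsewhere. Of the embryos in lanes K to N, 25 had a B6 mother and 20 an F1 mother.

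The reads of Tap1 in these lanes carried few votes. The median level of Tap1 was 7.07 to 9.40 RPM in lanes K to N and 0.856 to 3.43 RPM elsewhere, but 826 reads gave 52 votes in the former and 531 reads gave 286.5 in the latter. Votes per read were therefore 0.0630 against 0.540, a ratio of 0.117. Over 8192 genes the median ratio was 0.769, and 233 genes had one as low as Tap1. B2m kept its votes per read, 0.685 against 0.721. Most Tap1 reads in lanes K to N thus carried no vote, and where on the gene they lay was not tested. Lane J, at 0.125 votes per read, had 16 reads of Tap1.

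**Figure D5:**
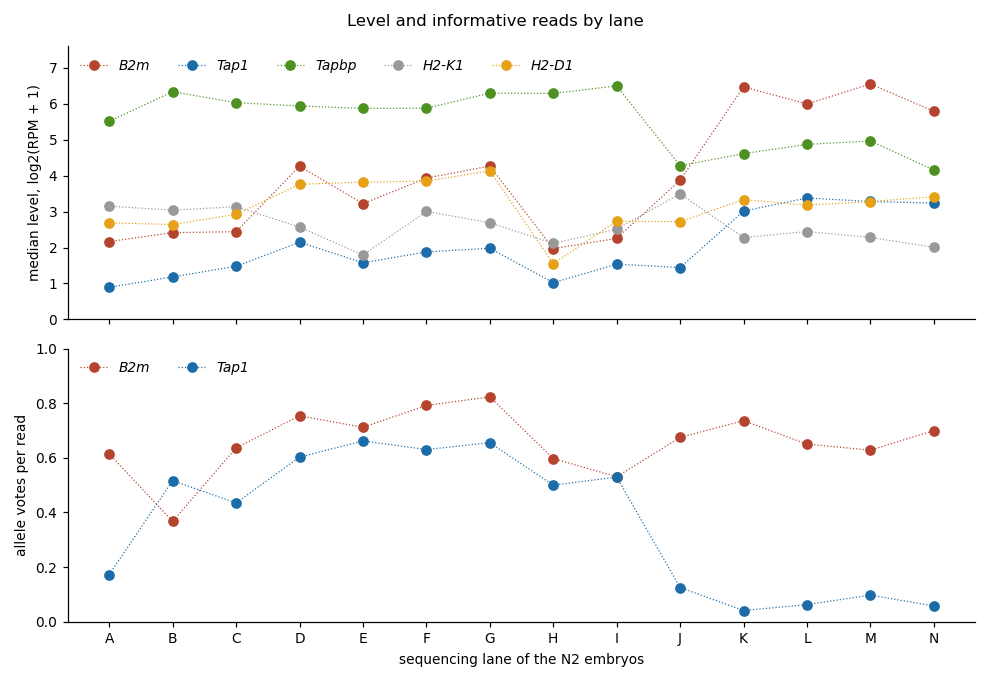
Median level per lane as log2(RPM + 1) for 5 of the genes (top) and allele votes per read of B2m and Tap1 (bottom), by sequencing lane of the N2 embryos; dotted lines only join points of 1 gene. In lanes K to N B2m and Tap1 are high and Tapbp is low, and the votes per read of Tap1 fall to 0.0410 to 0.0974.

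Other genes of the pathway were taken from lists of known members. Over all genes 29.2% were called by own genotype, 22% by somite number and 5.03% by mother. Whether the calls in a list depart from these shares was not tested. Of 18 genes for peptide supply and assembly 14 were tested, and 2 rose with somite number, Psmb8 (rho = 0.293, q = 0.00352) and Psmb9 (rho = 0.213, q = 0.0450), catalytic subunits of the immunoproteasome. These 2 calls held with lane regressed out (q = 0.0118 and 0.0424), and Psmb7, a subunit of the constitutive proteasome, fell (rho = -0.345) but not with lane regressed out (q = 0.740). The median rho of the list was -0.020, beside -0.024 over all genes tested. In this list Psmb10 was higher and Canx, Psmb6 and Psme3 were lower in embryos heterozygous at the gene, with a median difference of -0.02 against 0.00 over all genes. Psmb7 (355 against 204 RPM) and Psme1 (124 against 85.7 RPM), part of the proteasome activator, were higher with F1 mothers.

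Of 23 regulators and interferon pathway genes 15 were tested. By own genotype 1 was called, by somite number 1 and by mother 1, beside 29.2%, 22% and 5.03% of all genes. Ifngr1, a chain of the interferon gamma receptor, was higher in heterozygous embryos (0.37 ± 0.10 within lanes, q = 5.43e-04), and its own BAF was 0.442. Ifngr2, its partner chain, was higher with F1 mothers (46.4 against 24.8 RPM), and Rfxank, a subunit of the X box complex, rose with somite number (rho = 0.248, q = 0.0169) but not with lane regressed out (rho = 0.107, q = 0.498). Nlrc5, the class I transactivator, had a mean of 0.0238 RPM and no read in 145 of 154 N2 embryos. Summed over the list, the level was 257 to 782 RPM in lanes K to N with a median of 571 RPM, and 174 to 542 RPM elsewhere with a median of 353 RPM. The part of these genes in the level of B2m was not tested.

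Among 29 other class I genes, 26 had a row and 1, Fcgrt, was tested for level. Fcgrt encodes the heavy chain of the neonatal Fc receptor, which also binds beta-2-microglobulin. It was lower in heterozygous embryos (-0.19 ± 0.072, q = 0.00113) and rose with somite number (rho = 0.366, q = 1.12e-04), but not with lane regressed out (q = 0.0566). In ASE 4 were tested and 3 called, H2-Q10 (BAF 0.679), H2-M5 (0.806) and Cd1d2 (0.170), beside 18.9% of the 9084 genes. For class II, 0 of 11 genes reached 5 RPM.

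Cells of other types were looked for through markers. Of 15 macrophage and leukocyte markers with a row 11 were tested, and 6 rose with somite number (Csf1r, C1qa, C1qb, C1qc, Tyrobp and Laptm5; rho 0.212 to 0.482), beside 22% of all genes. C1qc did not with lane regressed out (rho = 0.162, q = 0.240). Their summed level was 208 to 460 RPM in lanes K to N (median 306 RPM) and 228 to 628 RPM elsewhere (median 366 RPM). Between the Tapbp genotypes the sum had nearly the same median, 339 RPM in heterozygous and 340 RPM in B6/B6 embryos. Of 9 endothelial markers tested 2 rose with somite number, Pecam1 and Cldn5, and neither did with lane regressed out. Of 14 extra-embryonic and decidual markers, 11 were under 1 RPM and 4 (Prl3d1, Prl2c2, Psg21 and Ceacam12) had no read in any N2 embryo. The 3 others, Afp, Apoa1 and Ttr, are also made in the embryo, and all 3 rose with somite number (rho 0.325 to 0.567). The part of these cells in the level of B2m and in the stage calls of Tapbp and H2-T23 was not tested.

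The genes that varied most like each member were named from Spearman's rho over the 154 N2 embryos with lane regressed out. For H2-K1 they were Id1 (0.53), Banf1 (0.47) and Pdia6 (0.47), and for H2-D1 Atp6v0d1 (0.50), Txndc5 (0.48) and Mrps6 (0.48). For B2m they were Oxct1 (0.72), Ahcyl1 (0.69) and Lancl2 (0.68), and for Tapbp Jmjd8 (0.68), Acot7 (0.67) and Nme3 (0.64). None of these is a member. Between the members themselves rho was lower: 0.33 for B2m and Tap1 (0.72 before lane was regressed out), 0.31 for H2-D1 and Tap1, 0.19 for H2-K1 and H2-D1, and -0.30 for B2m and Tapbp. All of these share depth and the remaining differences between embryos, so they are given as descriptions.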

How the data were processed

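Single E11.5 embryos were profiled by 3SEQ. The authors mapped reads with Bowtie2, named in the submitters' processing notes as is mm9, to B6 and to a Cast version of that genome carrying known SNPs. They deposited raw counts per RefSeq gene, allele votes as estimated counts that need not be whole, and a genotype score per gene and embryo, deposited as 0.5 (heterozygous), 1 (B6/B6) or 0 (not called). No normalization had been applied. Each F1 embryo was sequenced in 2 runs and has 1 column.

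The members were found by symbol in every table (8 of 22033 genes). Members, lists and tests were chosen with earlier results of these data known. The labels gave each embryo's group, litter, lane and somite number. Of 168 N2 columns, 8 have no mother in their labels and 6 have no genotypes, and 154 were used. Median depth was 30107972 and 30432600 reads in the F1 crosses and 2299798 and 2269579 reads with B6 and F1 mothers, so that 5 RPM rests on few reads in a typical N2 embryo. Replicate numbers mark no animal or litter shared between groups. Litters were used as a block in limma for mother and in a linear model of log2(RPM + 1) for own genotype.

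Counts were divided by all reads on genes (RPM) and, where logged, given a pseudocount of 1. Each test was fitted on all genes that passed a mean of 5 RPM (1 RPM as an alternative) or 20 votes. ASE used a paired test (Bonferroni-adjusted p under 0.01, with a pooled BAF below 0.45 or above 0.55), own genotype a rank-sum test (q under 0.01), stage Spearman's correlation (q under 0.05, for BAF under 0.1), mother a Mann-Whitney U test (adjusted p under 0.01), and interactions a linear model with lane (q under 0.05). Reciprocal crosses were compared by an exact permutation test of 8 against 8 embryos, whose smallest p is 1.55e-04. Differences with an SE come from a linear model of log2(RPM + 1) with lane, apart from the rank-sum test. The tests of ASE, own genotype, stage and mother follow the study's methods, with 15 principal components in place of PEER and Benjamini-Hochberg q in place of permuted q. The reciprocal and interaction tests are not taken from it. Because counts call for a count model, edgeR 4.0.16 (quasi-likelihood, adjusted p by Benjamini-Hochberg), DESeq2 1.42.0 and limma 3.58.1 were run as alternatives in R 4.3.3, and the rest in Python 3.11.15 with scipy 1.17.1. Tests were checked on simulated data. The simulated counts held no differences between lanes or litters, so that check does not cover such differences.

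Genes named are the 8 members, the listed genes past a threshold, and the 3 genes most like each member of at least 5 RPM. AA388235, Wdr46, Zbtb22 and the genes that bound the runs without votes were chosen after their values were seen, as were the split of B2m at 30 RPM and lanes K to N. Coordinates are those of mm9 in GENCODE vM1, and promoters come from RefSeq (GRCm38.p6). Tap2 had no promoter entry. Intervals are at 95%.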

Additional observations from a re-analysis of the deposited data

Results flagged for a closer look

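H2-M3 stood out in Cast × B6, where 1 embryo had 1.52 RPM and lay far above the other 7. In B6 × Cast, 1 embryo had a B2m BAF of 0.538, far below the other 7, which lay between 0.709 and 0.831. This embryo also had the most B2m transcript of its cross, 36.9 RPM. In all, 22 groups were examined for such embryos, and chance marks about 1 in 20 groups.

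The 8 N2 columns whose labels name no mother held 5 to 1210811 reads, and 4 members had over 3 reads there in sum: H2-K1 with 6, H2-D1 with 17, B2m with 30 and Tapbp with 83. The highest single value was 67.7 RPM for Tapbp and 58.0 RPM for H2-D1. These columns entered no comparison.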

How the results depend on the processing

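Of 172 values of the members under alternatives, 126 kept their direction and their side of the threshold, 12 lost a call, 6 gained one and 28 changed sign, and none of the 28 was called.

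Counts over all genes moved as follows. ASE gave 1105 genes in F1 embryos alone and 2889 under Benjamini-Hochberg adjustment. Own genotype gave 1886 with 0 principal components, 1183 with nothing regressed out, 1841 with B6 mothers alone, 1313 with F1 mothers alone, 1418 on flowcell 2 and 1403 with litter as a block. Somite number gave 1151 with lane regressed out, 1333 with that and a mean of 1 RPM, 174 over litter means and 5161 with B6 mothers alone, and BAF against it gave 2 with lane regressed out and 16 at 10 votes. Mother gave 0 in limma with litter as a block, over litter means and over lane means, 212 on flowcell 1, 24 on flowcell 2, 2077 under Benjamini-Hochberg adjustment and 1227 without lanes K to N. Own genotype by mother gave 4 at 1 RPM and 8 without lanes K to N, and somite number by mother gave 0 without these lanes. Leaving out each F1 litter gave 1617 to 1655 genes with ASE.

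Changes of sign were as follows. In ASE, Tap1 was at -0.0064 in F1 embryos alone and in a quasi-binomial test and at -0.0088 to 0.0206 with each F1 litter left out, the lowest without litter 2 of Cast × B6, and B2m was at -0.0442 in N2 embryos. In own genotype H2-K1 was at -0.0099 with 0 components, -0.0857 with nothing regressed out, -0.0568 on flowcell 2, -0.0114 in edgeR and -0.0218 with litter as a block, beside 0.08 with 15 components. There B2m was at 0.20, 0.16 and 0.0082 with 0, 5 and 30 components, 0.44 with nothing regressed out, 0.12 with F1 mothers, 0.10 on flowcell 2, 0.17 in edgeR and 0.183 with litter as a block, beside -0.02. Against somite number with lane regressed out, H2-D1 was at 0.097 and B2m at 0.028, at either minimum of RPM, and B2m was at 0.236 with F1 mothers. The rho of B2m BAF was 0.103 with lane regressed out. By mother, H2-K1 was at 0.00616 in limma and 0.0807 on flowcell 2, B2m at -0.0741 over litter means and Tapbp at -0.78 on flowcell 2. The somite slope of H2-K1 by mother was -0.0311 without lanes K to N.

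The call of Tapbp by own genotype held in every alternative run. That of H2-D1 was lost with nothing regressed out (q = 0.0193), with F1 mothers alone (0.0887), on flowcell 1 (0.0226), without lanes K to N (0.0268) and with litter as a block (0.0361). It was also lost in edgeR (0.229), where the adjustment is over all genes at the genotype of H2-D1. The stage call of Tapbp was also lost over litter means, with F1 mothers alone and on TMM-scaled values (q = 0.0797). H2-K1 gained a stage call with F1 mothers alone (q = 0.0169). Alternatives on lanes K to N, the litter block for own genotype, flowcells, interactions at 1 RPM and 10 votes were chosen after seeing the data. No paired analysis was possible because the groups compared are different litters and their replicate numbers mark no shared animal or litter; heterozygous and B6/B6 litter mates were compared with litter as a block. Depth limits Tap1, Tap2, H2-T23 and H2-M3, and the want of votes limits H2-K1, H2-D1, H2-T23 and Tapbp.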
